A study of Homo sapiens with 6 samples.

Results

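A set of 10 hypoxia-inducible target genes of the transcription factor HIF1 was followed in SKOV3 ovarian carcinoma cells: ADM, VEGFA, BNIP3, BNIP3L, DDIT4, EGLN1, EGLN3, NDRG1, P4HA1 and ANKRD37. All probes annotated to these symbols were taken, which gave 14 of the 47231 probes and 10 of the 20046 named genes of the array. SKOV3 is an established human carcinoma line, and all samples were cells of this 1 line. The siNRCP group (3 samples) had been treated for 48 h with an siRNA against NRCP, a long non-coding RNA, and the sicontrol group (3 samples) for 48 h with control siRNAs. Every sample therefore carried an siRNA, no hypoxia treatment is named in the labels, and separate cultures are not stated, so each p-value covers only the scatter among these samples and part of that scatter may be technical. RNA was read on 1 Illumina BeadArray per sample, and the groups were compared to see how silencing of NRCP bears on gene expression. NRCP itself was not analysed here, because no probe was named for it, so the depth of silencing is unknown. The siRNA sequences, and how many were used per target, are not given in the sources used here. A ± after a difference gives the standard error of the fit, from 3 arrays per group, and log2 values are normalized probe intensities.

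HIF1 is a dimer of an oxygen-regulated alpha subunit, HIF1A, and a stable partner, ARNT. In oxygenated cells prolyl hydroxylases of the EGLN family mark HIF1A for capture by VHL and for degradation. When oxygen is low the dimer accumulates, binds short hypoxia response elements and induces genes of angiogenesis, mitophagy, growth arrest, matrix building and glycolysis. EGLN3 is itself such a target and so forms a feedback loop, and in many carcinomas part of this programme is active without low oxygen.

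Of the 14 probes 4 fell in siNRCP cells and 0 rose (limma, Benjamini-Hochberg adjusted p under 0.05), where 0.917% of all probes fell and 0.737% rose (1.65% in all). The probes that fell belonged to BNIP3, ADM, DDIT4 and EGLN3. By the brightest probe of each gene, 4 of the 10 fell, where 1.51% of all named genes fell and 1.27% rose (2.78% in all). All 10 genes lay above background, as did 11558 of the 20046 named genes. Those 11558 held all 303 genes that fell and all 255 that rose. The 10 genes were chosen with earlier results of these data known, so these shares are not independent support. The median difference of the 10 genes was -0.46 log2, against 0.01 over all named genes, and it was the same with EGLN3 at its bound. The other 6 genes did not pass, and for BNIP3L, NDRG1, P4HA1 and VEGFA the lowest siNRCP value was that of array 1. The calls depended on single arrays, since BNIP3 passed in 3, EGLN3 in 2, and ADM and DDIT4 in 1 of the 6 fits that left out an array. Without siNRCP array 1, 5 member probes passed, where 21% of all probes did. Above background on at least 3 arrays were 13 of the 14 member probes, but only 20027 of all 47231. The share that passed among those 20027 was not taken in that fit, so 5 of 14 cannot be called an excess. Leaving out siNRCP array 2 left BNIP3 and EGLN3 (0.398% of all probes passed), and leaving out siNRCP array 3 left BNIP3 (0.0826%). Leaving out sicontrol array 1, 2 or 3 left 0 member probes in limma, where 0.0254%, 0.0381% and 0.0106% of all probes passed. An unadjusted limma p under 0.05 was had by 5, 4 and 5 of the 14, and by 5081, 4252 and 4227 of all 47231.

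One siNRCP array stood apart from the other two. Over the 20027 probes above the background level, siNRCP array 1 differed from siNRCP arrays 2 and 3 by a mean of 0.521 and 0.467 log2, but from sicontrol arrays 1 to 3 by 0.320, 0.270 and 0.274. Arrays 2 and 3 of siNRCP differed by 0.180, and sicontrol arrays differed from each other by 0.147 to 0.217. The group label of that array and the depth of its silencing could not be checked, since no probe was named for NRCP. A siNRCP mean may therefore join unlike samples. Member values and calls are therefore also given without it. The array was singled out by these same values, and the 2 siNRCP arrays left are alike. The p-values of that fit are thus a description and not independent evidence. In that fit, with 2 siNRCP and 3 sicontrol arrays, 14.2% of all named genes were called lower and 17% higher. These shares count genes at background too, and the shares among the 11558 named genes above it were not taken. Mean raw intensity, before normalization, differed within the siNRCP group: array 1 had 554, array 2 had 373 and array 3 had 486. For sicontrol it lay between 555 and 563. By this measure siNRCP array 1 was near the sicontrol arrays, so the fit without it compared 2 dimmer arrays with 3 brighter ones. Whether raw intensity bears on the calls was not tested, and these values do not settle which siNRCP arrays are typical. The epithelial genes KRT8, KRT18, KRT19, ERBB2 and EPCAM lay above background, and 0 of these 5 genes passed with all arrays, while without siNRCP array 1 KRT8 and ERBB2 were called higher and KRT19 lower. Above background on at least 3 arrays were 0 of 3 blood genes, 1 of 3 endothelial genes (PECAM1, on 1 siNRCP and 2 sicontrol arrays) and 0 of 2 fibroblast genes.

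The stretches of 250 bases that end just before the start of the 4 genes that fell, and of ANKRD37, a small HIF target that did not pass, are shown because hypoxia response elements are built around a short core. The sequences are those of RefSeq, build GRCh38.p14, on the strand of the gene. Capitals mark the core ACGTG or GCGTG on either strand, where a CACGTG counts as ACGTG on both strands. The window of BNIP3 lies at chr10:131981924-131982173 (minus strand), EGLN3 at chr14:33951075-33951324 (minus), ADM at chr11:10304823-10305072 (plus), DDIT4 at chr10:72273674-72273923 (plus) and ANKRD37 at chr4:185396591-185396840 (plus).
BNIP3: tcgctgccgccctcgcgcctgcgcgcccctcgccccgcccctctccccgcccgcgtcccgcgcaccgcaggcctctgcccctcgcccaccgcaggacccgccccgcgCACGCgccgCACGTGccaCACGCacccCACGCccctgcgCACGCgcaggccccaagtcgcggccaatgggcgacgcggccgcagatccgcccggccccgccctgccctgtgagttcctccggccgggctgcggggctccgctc
EGLN3: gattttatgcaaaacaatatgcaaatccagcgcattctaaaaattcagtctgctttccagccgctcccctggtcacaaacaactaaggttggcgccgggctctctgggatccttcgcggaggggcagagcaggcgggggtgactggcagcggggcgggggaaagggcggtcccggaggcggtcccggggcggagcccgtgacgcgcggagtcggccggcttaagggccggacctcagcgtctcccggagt
ADM: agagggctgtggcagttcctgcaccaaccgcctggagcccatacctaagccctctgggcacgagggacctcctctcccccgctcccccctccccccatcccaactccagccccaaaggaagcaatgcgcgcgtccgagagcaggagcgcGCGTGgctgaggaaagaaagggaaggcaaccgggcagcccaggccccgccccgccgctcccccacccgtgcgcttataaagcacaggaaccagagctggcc
DDIT4: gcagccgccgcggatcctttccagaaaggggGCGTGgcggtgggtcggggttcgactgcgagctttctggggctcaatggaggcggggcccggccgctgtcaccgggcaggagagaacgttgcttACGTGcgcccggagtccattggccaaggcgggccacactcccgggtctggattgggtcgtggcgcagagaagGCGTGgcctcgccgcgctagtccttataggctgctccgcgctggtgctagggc
ANKRD37: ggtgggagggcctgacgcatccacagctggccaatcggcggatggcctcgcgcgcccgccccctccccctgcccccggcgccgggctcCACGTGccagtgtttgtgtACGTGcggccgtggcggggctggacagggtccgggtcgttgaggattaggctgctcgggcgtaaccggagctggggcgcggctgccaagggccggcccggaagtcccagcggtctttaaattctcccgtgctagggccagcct

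Of the 7 member genes with an entry (these 5, EGLN1 and P4HA1), 5 held ACGTG in that window, as did 18.5% of the windows of all 35116 promoters. GCGTG stood in 3 of the 7 and in 32.2% of all, and either core in 6 of the 7 and in 43.2% of all. BNIP3 had a CACGTG at -134 to -129 from the gene start with 4 GCGTG cores on the opposite strand around it. ANKRD37 had a CACGTG at -162 to -157 and another ACGTG at -143 to -139, DDIT4 had 1 ACGTG and 2 GCGTG, and ADM had 1 GCGTG at -101 to -97. EGLN3 held neither core in this window. A match is a run of letters and not a shown binding site. With all arrays EGLN3 fell with 0 cores, and ANKRD37 did not pass with 3, its CACGTG counted on both strands. ANKRD37 did pass without siNRCP array 1. Bases outside the window were not searched, so these few genes do not show how cores bear on the calls.

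**Figure D1:**
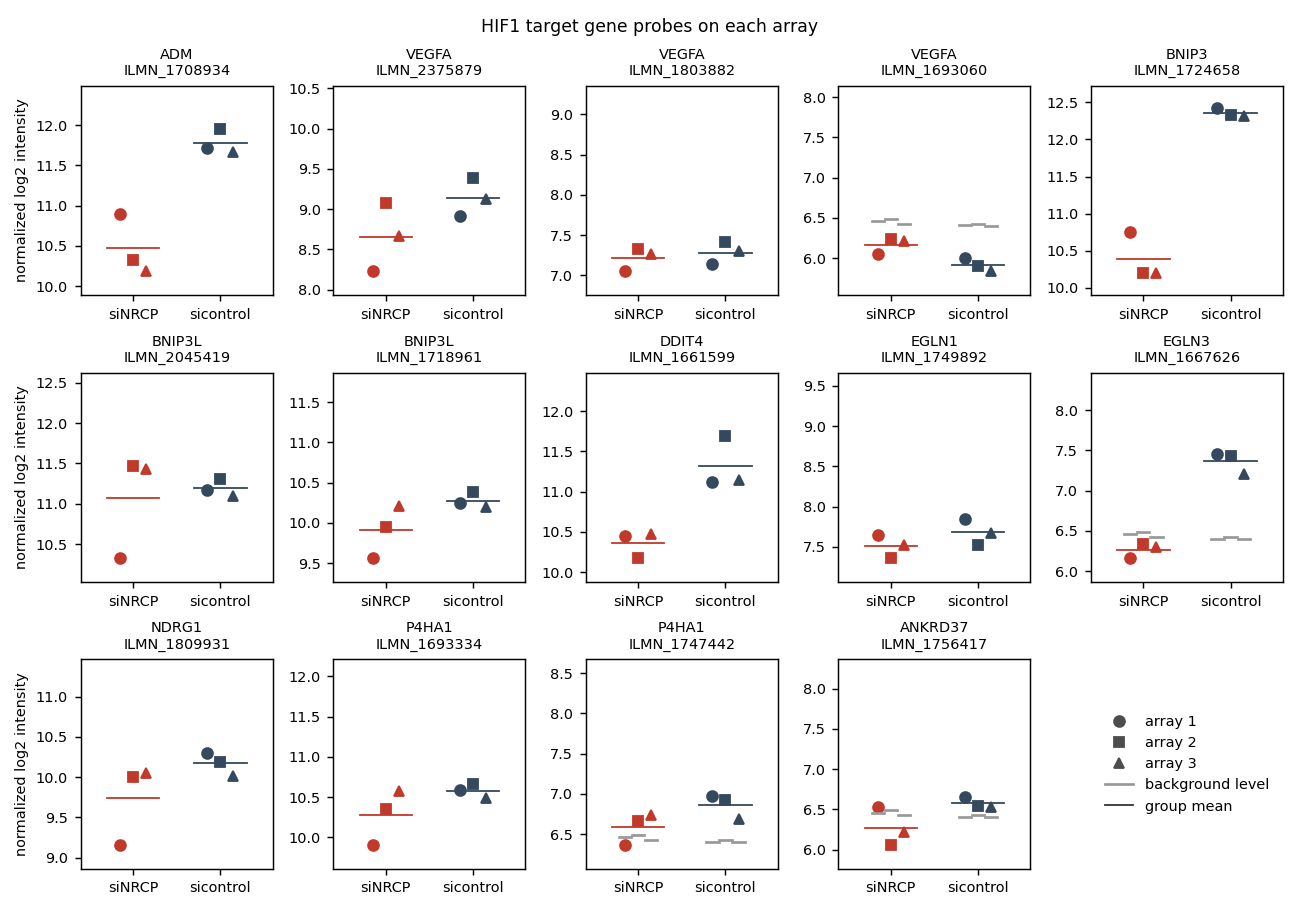
Normalized log2 intensity of the 14 probes on the 3 siNRCP arrays (left in each panel, red) and the 3 sicontrol arrays (right, blue), with the group means as lines and the background level of each array in grey where it lies within the panel. Circles, squares and triangles are arrays 1, 2 and 3, and the panels start at different levels. ADM, BNIP3, DDIT4 and EGLN3 separate the groups on all arrays, while BNIP3L, NDRG1 and P4HA1 have their lowest point on siNRCP array 1.

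ADM encodes adrenomedullin, a secreted vasodilator peptide. Its probe (ILMN_1708934) read 10.90, 10.32 and 10.19 log2 on siNRCP arrays 1 to 3, against 11.71, 11.95 and 11.67 on sicontrol arrays 1 to 3. The groups did not overlap, and siNRCP array 1 was the closest to the sicontrol arrays. The decrease in ADM was -1.31 ± 0.19 log2, which is 2.48-fold (limma adjusted p = 0.023). With siNRCP array 1 left out the difference was -1.51 log2 (limma adjusted p = 3.5e-07). In bulk samples such as these, fewer cells that make a transcript and less of it per cell cannot be told apart.

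VEGFA, the main angiogenic growth factor and a textbook HIF target, did not pass on any of its 3 probes. The brightest (ILMN_2375879) read 8.23, 9.07 and 8.67 log2 on siNRCP arrays, against 8.92, 9.38 and 9.13 on sicontrol arrays, a difference of -0.48 ± 0.22 (limma adjusted p = 0.39; 95% interval -0.99 to 0.02). The groups overlapped, with siNRCP array 2 above sicontrol array 1. That difference was -0.27 without siNRCP array 1 (limma adjusted p = 0.26). A dimmer probe (ILMN_1803882) differed by -0.07 ± 0.11 (limma adjusted p = 0.88; interval -0.33 to 0.20), and by 0.016 without siNRCP array 1. The remaining probe, of another transcript accession (ILMN_1693060), exceeded background on 0 arrays.

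Of 4 measured partner genes of ADM 0 passed and 1 lay above background, and of 7 of VEGFA 1 rose, 0 fell and 4 lay above background. Over the 11558 named genes above background 255 rose and 303 fell. Named after their values were seen, the VEGF receptor genes FLT1 and KDR and the adrenomedullin receptor gene CALCRL exceeded the background level on 0 siNRCP and 0 sicontrol arrays. NRP2, a co-receptor of VEGF family ligands, rose in siNRCP cells. Its brightest probe (ILMN_2274306) read 7.95, 7.86 and 7.97 log2 on siNRCP arrays, against 7.35, 6.998 and 7.07 on sicontrol arrays, a rise of 0.79 ± 0.11 (limma adjusted p = 0.024), and of 0.77 without siNRCP array 1 (limma adjusted p = 0.00018). The other NRP2 probes differed by 0.76, 0.51 and 0.31 log2 and did not pass (limma adjusted p = 0.057, 0.095 and 0.70), but all of them passed as higher without siNRCP array 1.

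BNIP3 and BNIP3L encode related receptors on the outer mitochondrial membrane that recruit the autophagy machinery and so promote mitophagy. BNIP3 (ILMN_1724658) had a raw intensity of 1948, 844 and 1210 on siNRCP arrays 1 to 3, against 6275, 6003 and 5818 on sicontrol arrays 1 to 3. After normalization it read 10.75, 10.20 and 10.21 log2 on siNRCP arrays, against 12.42, 12.33 and 12.32 on sicontrol arrays. All siNRCP values lay far below all sicontrol values, and the sicontrol arrays scarcely differed. The BNIP3 difference was -1.97 ± 0.16 log2 (95% interval -2.33 to -1.60), which is 3.91-fold (limma adjusted p = 0.0059), and -2.14 log2 without siNRCP array 1 (limma adjusted p = 9.7e-09).

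BNIP3L did not pass on either probe. The brighter probe (ILMN_2045419) read 10.33, 11.47 and 11.43 log2 on siNRCP arrays, against 11.17, 11.31 and 11.10 on sicontrol arrays. Array 1 of siNRCP was the lowest of the 6 and siNRCP arrays 2 and 3 were the highest, so the difference of -0.12 ± 0.29 (limma adjusted p = 0.92) averages values on both sides of the sicontrol arrays, with a 95% interval of -0.79 to 0.56. Without siNRCP array 1 it turned to 0.25 (limma adjusted p = 0.14). The other probe (ILMN_1718961), of the same transcript accession, read 9.57, 9.95 and 10.21 on siNRCP arrays and 10.24, 10.39 and 10.20 on sicontrol arrays, a difference of -0.37 ± 0.16 (limma adjusted p = 0.38). That value was -0.19 without siNRCP array 1 (limma adjusted p = 0.34), so the probes disagree in sign there. The 2 probes had a Pearson r of 0.75 over the 6 arrays, a description of arrays that fall into 2 groups. Among genes that act beside these receptors (BCL2, BCL2L1, MAP1LC3B, GABARAPL1, PINK1 and FUNDC1), 0 of 6 passed in limma and 0 had an unadjusted p under 0.05 with all arrays. The fit without siNRCP array 1 called 3 of the 6, with GABARAPL1 and FUNDC1 lower and BCL2L1 higher. It called 14.2% of all named genes lower and 17% higher, with genes at background counted too.

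DDIT4, also known as REDD1, restrains mTOR complex signalling through the TSC1 and TSC2 proteins. Its probe (ILMN_1661599) read 10.45, 10.18 and 10.47 log2 on siNRCP arrays, against 11.12, 11.69 and 11.14 on sicontrol arrays. The groups did not overlap, and sicontrol array 2 was the highest of the 6. DDIT4 was lower by 1.93-fold, a difference of -0.95 ± 0.17 log2 (limma adjusted p = 0.047), close to the threshold, and it passed in 3 of the 9 other settings with all arrays. The difference was -0.98 log2 without siNRCP array 1 (limma adjusted p = 0.00018). Of its partners and relatives TSC1, TSC2, MTOR, RPTOR, DDIT4L and SESN2, 0 of 6 passed in limma with all arrays. An unadjusted limma p under 0.05 was had by 2 of the 6, and by 4119 of the 20046 named genes. Of the 11558 named genes above background, 3884 had such a p. The fit without siNRCP array 1 called 4 of the 6 higher, TSC1, TSC2, MTOR and RPTOR. It called 17% of all named genes higher, with genes at background counted too.

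EGLN3 and EGLN1 are prolyl hydroxylases that use oxygen to mark HIF alpha subunits, and EGLN1 is regarded as the main oxygen sensor. EGLN3 (ILMN_1667626) read 6.17, 6.34 and 6.30 log2 on siNRCP arrays, against 7.46, 7.43 and 7.21 on sicontrol arrays. It exceeded the background level on 0 of 3 siNRCP arrays and on 3 of 3 sicontrol arrays, so its level in siNRCP cells has an upper bound only. Taken against that background level (a mean of 6.46 log2), EGLN3 was at least 1.87-fold lower in siNRCP, with measured means of 6.27 ± 0.09 in siNRCP and 7.36 ± 0.14 in sicontrol (SD, n = 3 each; limma adjusted p = 0.0076). That p was 5.7e-06 in limma without siNRCP array 1. The bound holds for the main setting only. EGLN3 differed by -0.76 log2 without background correction, -0.77 with the series matrix values and -1.60 with an offset of 16. No bound was taken in these settings.

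EGLN1 (ILMN_1749892) read 7.64, 7.37 and 7.53 log2 on siNRCP arrays, against 7.85, 7.52 and 7.67 on sicontrol arrays. The groups overlapped, and the difference was -0.17 ± 0.12 (limma adjusted p = 0.63), with a 95% interval of -0.45 to 0.11. That interval does not reach a 1.5-fold decrease, but it holds for the main setting only. EGLN1 differed by -0.20 with an offset of 16 and by -0.34 with median scaling, where no interval was taken. The difference was -0.23 without siNRCP array 1 (limma adjusted p = 0.24).

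**Figure D2:**
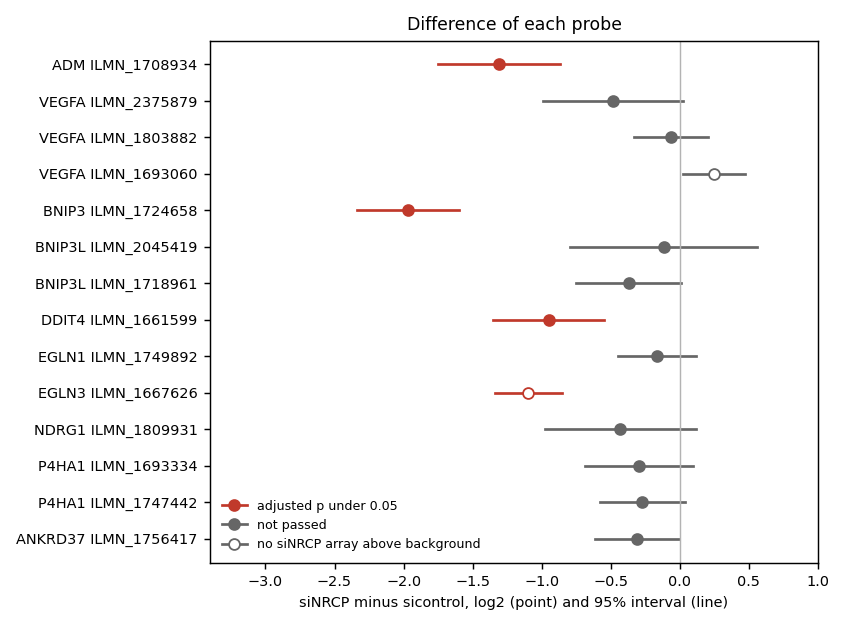
Difference of each probe between siNRCP and sicontrol in log2 units (points) with the 95% interval of the limma fit (lines). Red marks an adjusted p under 0.05, and open points mark probes above background on 0 siNRCP arrays, EGLN3 and VEGFA ILMN_1693060, whose fitted points are neither folds nor bounds. BNIP3 at -1.97 lies farthest from 0, and 13 of the 14 points lie below 0.

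NDRG1 encodes a stress-induced protein of the NDRG family linked to growth arrest and differentiation. It read 9.16, 9.999 and 10.06 log2 on siNRCP arrays, against 10.30, 10.19 and 10.02 on sicontrol arrays (ILMN_1809931). Array 1 of siNRCP alone was low, and siNRCP array 3 lay above sicontrol array 3. The difference was -0.43 ± 0.23 (limma adjusted p = 0.49; interval -0.98 to 0.12) and -0.14 without siNRCP array 1 (limma adjusted p = 0.53). Of its relatives NDRG2, NDRG3 and NDRG4, NDRG4 (ILMN_2305225) fell by 0.56 ± 0.10 log2 (limma adjusted p = 0.040), or by 0.59 without siNRCP array 1 (limma adjusted p = 0.0010), and its other 3 probes exceeded background on 0 arrays.

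P4HA1 is the catalytic alpha subunit of the prolyl hydroxylase that stabilises collagen. Its brighter probe (ILMN_1693334) read 9.91, 10.36 and 10.57 log2 on siNRCP arrays, against 10.58, 10.67 and 10.48 on sicontrol arrays. The groups overlapped, with a difference of -0.30 ± 0.17 (limma adjusted p = 0.51; interval -0.69 to 0.09), or -0.11 without siNRCP array 1 (limma adjusted p = 0.64). The probe of another transcript accession (ILMN_1747442) differed by -0.27 ± 0.13 (limma adjusted p = 0.43) and by -0.16 without siNRCP array 1 (limma adjusted p = 0.46), above background on 2 siNRCP and 3 sicontrol arrays. The 2 probes had a Pearson r of 0.92 over the 6 arrays. Of its partner subunit gene P4HB and the sister genes P4HA2 and P4HA3, 0 of 3 passed in limma. An unadjusted limma p under 0.05 was had by 2 of the 3, and by 4119 of the 20046 named genes. Of the 11558 named genes above background, 3884 had such a p. P4HB was called higher without siNRCP array 1, where 17% of all named genes were.

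ANKRD37 encodes a small ankyrin repeat protein whose gene is induced by HIF1. It read 6.52, 6.06 and 6.21 log2 on siNRCP arrays, against 6.66, 6.54 and 6.52 on sicontrol arrays (ILMN_1756417), and exceeded background on 1 siNRCP and 3 sicontrol arrays. The groups did not overlap, though siNRCP array 1 and sicontrol array 3 were nearly equal. The difference was -0.31 ± 0.13 (limma adjusted p = 0.35) with all arrays and -0.44 without siNRCP array 1, where it passed (limma adjusted p = 0.0083). In all, 5 of the 14 probes had siNRCP arrays wholly below the sicontrol arrays, where 8.68% of all probes did, and 1 probe, the VEGFA probe at background, had them wholly above, where 9.15% did.

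The 10 genes differed in which siNRCP arrays were low. Set against the sicontrol mean of each gene, the median over the 10 genes was -0.87, -0.41 and -0.42 log2 on siNRCP arrays 1 to 3, against 0.04, 0.08 and -0.10 on sicontrol arrays 1 to 3. Over all named genes the same medians lay between -0.01 and 0.02 on the 6 arrays. BNIP3 read -1.60, -2.15 and -2.15 on siNRCP arrays 1 to 3, and ADM read -0.88, -1.46 and -1.59, so both were lowest on arrays 2 and 3. NDRG1 read -1.01, -0.17 and -0.11, and BNIP3L on its brighter probe -0.86, 0.28 and 0.24, with array 1 the lowest. DDIT4 at -0.87, -1.14 and -0.85 was about evenly low on the 3 arrays.

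**Figure D3:**
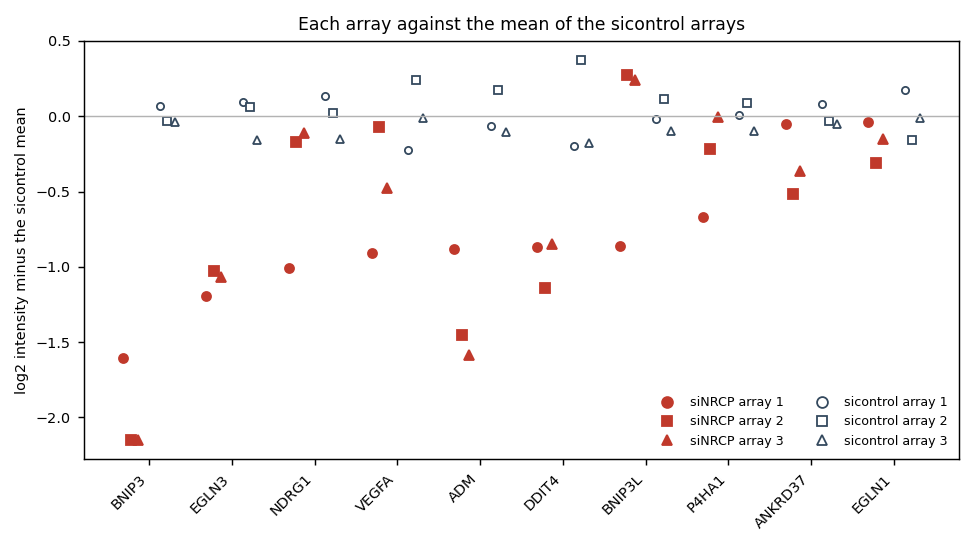
Log2 intensity of the brightest probe of each gene minus its sicontrol mean, for siNRCP arrays 1 to 3 (red, left) and sicontrol arrays 1 to 3 (open, right), with genes ordered by siNRCP array 1. BNIP3, EGLN3, ADM and DDIT4 are low on every siNRCP array (EGLN3 at background there), NDRG1, BNIP3L and P4HA1 mainly on array 1, and ANKRD37 and EGLN1 least on array 1.

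The list of the oxygen-sensing machinery leaves out EGLN1 and EGLN3, which are members and are given above. Of the 19 measured genes of that list 0 passed in limma with all arrays, and the median difference was 0.25 log2. Of the 19, 9 had an unadjusted p under 0.05, as had 4119 of 20046 named genes and 3884 of 11558 above background. HIF1A on its brightest probe (ILMN_2379788) read 12.48, 13.55 and 13.54 log2 on siNRCP arrays, against 13.40, 12.91 and 13.11 on sicontrol arrays, a difference of 0.05 ± 0.29 (limma adjusted p = 0.97). Its other probes differed by -0.04 and -0.20 (limma adjusted p = 0.97 and 0.82). Without siNRCP array 1 the brightest probe was called higher, by 0.40 ± 0.13 (limma adjusted p = 0.041), while the others differed by 0.30 and 0.10 and did not pass (limma adjusted p = 0.13 and 0.74). As on BNIP3L, siNRCP array 1 was the lowest of the 6 and siNRCP arrays 2 and 3 were the highest on that HIF1A probe. These values are transcripts and say nothing of the HIF1A protein, which oxygen controls.

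EGLN2, the third of the HIF prolyl hydroxylases, did not pass, though its siNRCP arrays lay above its sicontrol arrays on both probes. The brighter (ILMN_2354391) read 12.13, 12.25 and 12.30 log2 on siNRCP arrays, against 11.83, 11.73 and 11.75 on sicontrol arrays, a difference of 0.46 ± 0.09 (limma adjusted p = 0.058). Its second probe differed by 0.48 ± 0.09 (limma adjusted p = 0.056). HIF1AN, an asparagine hydroxylase that curbs HIF activity, differed by -0.45 ± 0.10 (limma adjusted p = 0.089), VHL by -0.33 ± 0.11 (0.23), ARNT by 0.31 ± 0.20 (0.58) and EPAS1, which encodes the HIF2 alpha subunit, by 0.05 ± 0.19 (0.95). Of the 19 genes, 18 lay above background. Without siNRCP array 1, 10 of the 19 were called higher and 5 lower, where 17% and 14.2% of all named genes were. EGLN2 and ARNT were among the higher, by 0.50 and 0.55 (limma adjusted p = 0.0022 and 0.0015), and HIF1AN and VHL among the lower, at -0.39 and -0.43 (limma adjusted p = 0.018 and 0.0064).

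Among 33 other measured HIF target genes outside glycolysis 1 fell and 1 rose, with a median difference of -0.16 log2. Of the 11558 named genes above background 303 fell and 255 rose, so these calls do not set the list apart. STC2, a secreted glycoprotein, read 7.29, 7.80 and 7.59 log2 on siNRCP arrays, against 8.65, 8.63 and 8.27 on sicontrol arrays, and fell by 0.96 ± 0.16 (limma adjusted p = 0.039). ERO1A, a disulfide-forming oxidase of the endoplasmic reticulum, read 8.73, 9.64 and 9.33 on siNRCP arrays, against 7.97, 7.75 and 8.05 on sicontrol arrays, and rose by 1.31 ± 0.22 (limma adjusted p = 0.038). PLOD2, a lysyl hydroxylase of collagen, fell on its dimmest probe (ILMN_1799139, -0.57 ± 0.09, limma adjusted p = 0.030) but not on its brightest (ILMN_1771599, -0.25 ± 0.18, 0.63). CA9 was not analysed here. Of the 33 genes, 28 lay above background. Without siNRCP array 1, 10 of the 33 were called lower and 4 higher, where 14.2% and 17% of all named genes were. STC2 was at -0.82 and ERO1A at 1.55 log2 there (limma adjusted p = 0.00021 and 5.3e-07).

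Among 16 measured glycolytic HIF targets 2 fell and 0 rose, where 303 and 255 of the 11558 named genes above background did. The median of the 16 was -0.49 log2. The 2 that fell were ALDOC, an aldolase (-1.36 ± 0.21 log2, limma adjusted p = 0.030), and GAPDH (-0.88 ± 0.16, 0.046), while the glucose transporter gene SLC2A1 (-0.48 ± 0.10, 0.082) and the pyruvate dehydrogenase kinase gene PDK1 (-0.04 ± 0.22, 0.97) did not pass. The other GAPDH probes differed by -0.97 and -0.93 log2 and did not pass either (limma adjusted p = 0.080 and 0.098). The GAPDH call was also lost with an offset of 16, cyclic loess, trend and robust options and the mean of its probes, while ALDOC passed in each of these. ALDOA (ILMN_1741148, -0.87, 0.040) and LDHA (ILMN_3251145, -1.51, 0.0031) passed on a probe other than their brightest. The brightest ALDOA probe differed by -0.98 log2 (limma adjusted p = 0.11). A dimmer ALDOA probe (ILMN_2251253), of the same transcript accession as the one that passed, went the other way, by 0.60 (0.22). Without siNRCP array 1 these 2 were at -1.25 and 0.78 log2 (limma adjusted p = 2.0e-06 and 0.00061). The other LDHA probes differed by -0.25 and -0.24 log2 (limma adjusted p = 0.40 and 0.34). Of the 16 genes, 15 lay above background. In the fit that lacked siNRCP array 1, 10 were called lower and 1 higher, where 14.2% and 17% of all named genes were. ALDOC was at -1.43 and GAPDH at -1.06 log2 there (limma adjusted p = 1.8e-05 and 3.1e-06). In each of the 5 fits that left out another array, 0 of the 16 passed, as did 0 of the 33 other targets, 0 of the 19 pathway genes and 0 of the partner genes.

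**Figure D4:**
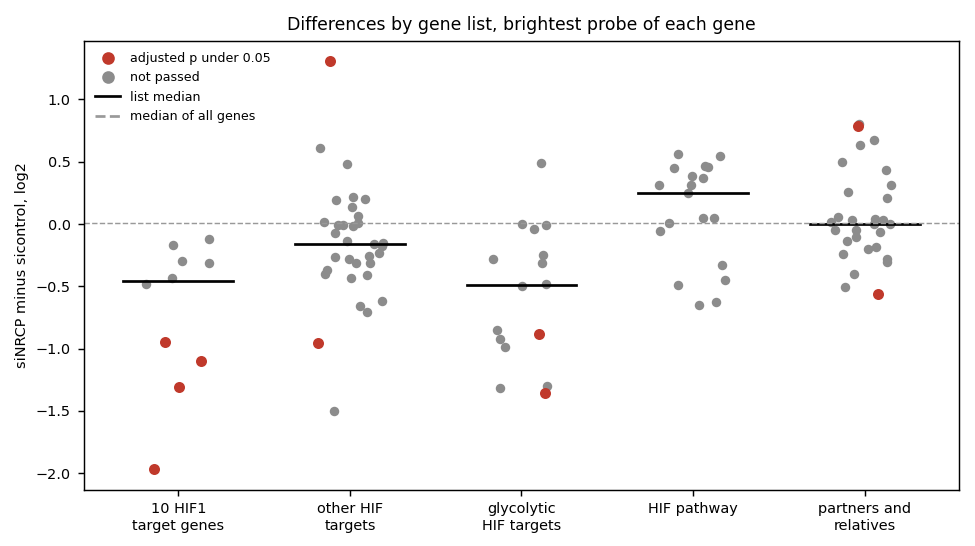
Difference between siNRCP and sicontrol in log2 units on the brightest probe of each gene, for the 10 HIF1 target genes and the other lists, with red for an adjusted p under 0.05, black lines for list medians and a dashed line for the median of all named genes (0.01). The medians are -0.46, -0.16, -0.49, 0.25 and 0.00 from left to right.

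The genes whose values followed BNIP3 and ADM most closely over the 6 arrays were taken from 10079 named genes above background on all arrays. For BNIP3 they were ASRGL1 (Pearson r = 0.996), NT5C3A (0.996) and IL1A (0.996), with differences of -1.23, -1.67 and -1.42 log2 (limma adjusted p = 0.0076, 0.012 and 0.0094). For ADM they were GNPDA2 (0.998), SLC2A6 (0.997) and RNASET2 (0.996), with differences of -0.56, -0.88 and -1.18 log2 (limma adjusted p = 0.070, 0.020 and 0.031). The 6 arrays fall into 2 groups, so such an r includes the difference between the groups.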

How the data were processed

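The deposited non-normalized table held bead intensity per probe, with no detection p-values. Its software was BeadStudio (per the submitters' processing notes), and its version is not known here. A second deposited table, the series matrix, gave log2 values, quantile normalized by the authors as far as their equal medians of 7.01 show.

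Intensities were background corrected (normexp, offset 50), quantile normalized and set on a log2 scale, since neqc needs detection p-values. All 47231 probes were fitted in limma 3.58.1 (R 4.3.3; siNRCP minus sicontrol, no covariate) with Benjamini-Hochberg adjustment and a threshold of 0.05. Of the probes 30113 carried 1 symbol, and 30074 matched RefSeq by Entrez identifier. The brightest probe stood for a gene in counts. Background on each array was set at the 95th percentile of 437 olfactory receptor probes, and a probe above it on at least 3 arrays counted as above background. A bound takes, per dim array, the higher of that level and the probe's own value. Probe sequences were not used here. The fit was tested on simulated data with the same scatter for every probe and no array apart. That test therefore does not cover data with an array like siNRCP array 1. The number of arrays limits the precision of the fit.

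The members and lists were chosen with earlier results of these data known. Named genes were all members, list genes that passed, a fixed few of the pathway and the 3 most correlated with BNIP3 and ADM. Alternatives were other background corrections, normalizations and variance options, array weights, a replicate block, a background filter, a 1.5-fold minimum, the mean of probes and leaving out each array.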

Additional observations from a re-analysis of the deposited data

How the results depend on the processing

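The direction of BNIP3, ADM, DDIT4 and EGLN3 was the same under every alternative run. Among the 9 other settings with all arrays, BNIP3 and EGLN3 passed in 8, ADM in 7 and DDIT4 in 3. Leaving out 1 array moved the member counts between 0 and 5 (probes and genes alike), those of other HIF targets between 0 and 14, of glycolytic targets between 0 and 11, of pathway genes between 0 and 15 and of partners between 0 and 11. The highest counts were those without siNRCP array 1, where ANKRD37 was the fifth member to pass. In that fit 14.2% of all named genes were called lower and 17% higher. Median scaling left 2 member probes and 2 member genes (BNIP3 and EGLN3), 1 other target, 1 glycolytic target and 0 partners. Without background correction and with the series matrix values, 0 other targets and 0 glycolytic targets passed, and 1 pathway gene did (EGLN2), as with the mean of a gene's probes, where 0 partners passed. Partners came to 1 with an offset of 16, with trend and robust options, with the background filter and with the 1.5-fold minimum. GAPDH gave way to PGAM1 or other glycolytic genes at equal or similar counts with an offset of 16, cyclic loess, trend and robust options and the mean of probes. Array weights gave 6 member probes, with ANKRD37 lower and the background-level VEGFA ILMN_1693060 higher as additions (limma adjusted p = 0.029 and 0.040), 12 other targets, 10 glycolytic targets, 14 pathway genes and 10 partners, where 17.3% of all probes passed. With the replicate number as a block 0 members (probes or genes), 0 other targets, 0 glycolytic targets and 0 partners passed, and 0 of all probes in limma (4887 had an unadjusted p under 0.05, among them 6 member probes). Same-numbered arrays deviated in opposite directions from their group means (r = -0.64, -0.43 and -0.20). With 3 arrays per group and siNRCP array 1 apart, these r depend on each other. They cannot tell whether the numbers pair the samples. BNIP3L ILMN_2045419 reversed to 0.17 with array weights and ran from -0.31 to 0.25 when an array was left out, and VEGFA ILMN_1803882 ran from -0.13 to 0.016; both were above 0 only without siNRCP array 1 among these fits. The cause of these changes was not tested. EGLN3, ANKRD37 and the dimmest VEGFA and P4HA1 probes lay near background, where a further decrease could not be read.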
